A study of Mus musculus with 28 samples.

Results

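The genes described here are Hif1a and 9 genes known as targets or regulators of the hypoxia response: Egln1, Egln3, Bnip3, Bnip3l, Pdk1, Vegfa, Ankrd37, P4ha1 and Higd1a. They were chosen by symbol and found through their Ensembl IDs, and all 10 are among the 43430 gene IDs of each count table. Hif1a encodes the oxygen-regulated subunit of hypoxia-inducible factor 1 (HIF-1), a transcription factor that pairs with the constant subunit encoded by Arnt. With oxygen present, prolyl hydroxylases such as those encoded by Egln1 and Egln3 mark the HIF-1α protein for destruction, so the activity of HIF is set largely at the protein level and is read in RNA through its targets. Mitochondrial respiration consumes oxygen and makes metabolites that these hydroxylases use or are inhibited by, and in regulatory T (Treg) cells HIF-1 is known for its links to glycolysis and to the stability of Foxp3 expression.

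RNA was measured in CD4+ YFP-Foxp3+ CD25+ Treg cells of C57BL/6NJ mice, in 28 libraries of 8 groups. RISP is the Rieske iron-sulfur protein of mitochondrial complex III, encoded by Uqcrfs1. RISP_WT and RISP_KO (4 libraries each) came from 3-week-old mice of genotype RISP WT and RISP KO, and RISP_Chimera_WT and RISP_Chimera_KO (4 each) from chimeras of 8 to 12 weeks with the same genotypes. The in vitro groups (3 libraries each) held RISP WT cells of 3-week-old mice, untreated or exposed to 1 µM piericidin (a complex I inhibitor), 500 µM 3-NPA (3-nitropropionic acid, a complex II inhibitor) or 1 µM antimycin A (a complex III inhibitor). The labels give neither the time of exposure nor the driver of the deletion nor the make-up of the chimeras, and the inhibitors were each tested at 1 dose. They do not say whether replicates are separate mice, so p-values measure only how far these libraries scatter, and that scatter may be technical.

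Depth was 28.4 to 50.8 M counts per library (M for mega) for the 3-week-old mice. It was 20.4 to 31.0 M for the chimeras, and the cells treated in vitro were shallower at 2.71 to 3.45 M. Values are CPM, counts relative to the library's total, scaled within each table by TMM, edgeR's factor for library composition. Uqcrfs1 read 5.19 to 7.27 CPM in RISP_KO against 151 to 189 in RISP_WT, and 4.83 to 11.3 CPM in RISP_Chimera_KO against 72.7 to 87.7 in RISP_Chimera_WT. The 8 Treg cell markers (Foxp3, Il2ra and others) were all detected in every group and summed to 3411 to 8291 CPM per library.

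Promoter sequence is shown for the 3 genes whose RNA rose with piericidin (Bnip3, Pdk1 and Hif1a) and for P4ha1, because HIF binds DNA at a short core, ACGTG or GCGTG. The sequences are from RefSeq on GRCm38.p6, are written 5′ to 3′ on the gene's strand, and stop before any annotated exon. Capitals mark a core on either strand, so that CACGT and CACGC are cores of the other strand, and CACGTG is a core on each strand at overlapping bases. Bnip3 lies at chr7:138909520-138909643 (minus strand), Pdk1 at chr2:71873126-71873170 (plus), Hif1a at chr12:73907712-73907821 (plus) and P4ha1 at chr10:59323113-59323295 (plus). The Hif1a stretch precedes an inner start and lies inside the annotated gene.
Bnip3: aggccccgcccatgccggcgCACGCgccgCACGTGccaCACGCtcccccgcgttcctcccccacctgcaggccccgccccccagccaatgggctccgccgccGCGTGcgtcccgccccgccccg
Pdk1: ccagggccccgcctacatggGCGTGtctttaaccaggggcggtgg
Hif1a: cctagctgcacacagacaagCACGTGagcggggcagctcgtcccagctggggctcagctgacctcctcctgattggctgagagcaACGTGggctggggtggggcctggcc
P4ha1: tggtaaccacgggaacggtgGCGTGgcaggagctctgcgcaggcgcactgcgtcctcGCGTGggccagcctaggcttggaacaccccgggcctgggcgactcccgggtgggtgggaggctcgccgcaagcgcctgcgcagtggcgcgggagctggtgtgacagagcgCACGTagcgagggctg

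The Bnip3 stretch carries 5 cores, the farthest starting 117 bases before the start, and its overlapping pair starts 108 bases before it. Over the RefSeq windows from 250 bases before to 50 bases after a start, 9 of the 10 genes matched an entry, with 11 windows in all. Of these windows 9 held a core. By gene, Bnip3 had 5 cores, Ankrd37 had 4, P4ha1, Hif1a and Higd1a had 3, Egln1 and Pdk1 had 2 and Egln3 had 1. Vegfa had none at its outer start and 2 in the window of an inner start. A core is common, since 43.8% of 32817 RefSeq promoter windows of the same length held at least 1, 20.6% held 2 or more and 8.93% held 3 or more. The windows of the 10 genes had a GC content of 40.3 to 86.0%, and a match of these letters is a description of the sequence only.

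**Figure D1:**
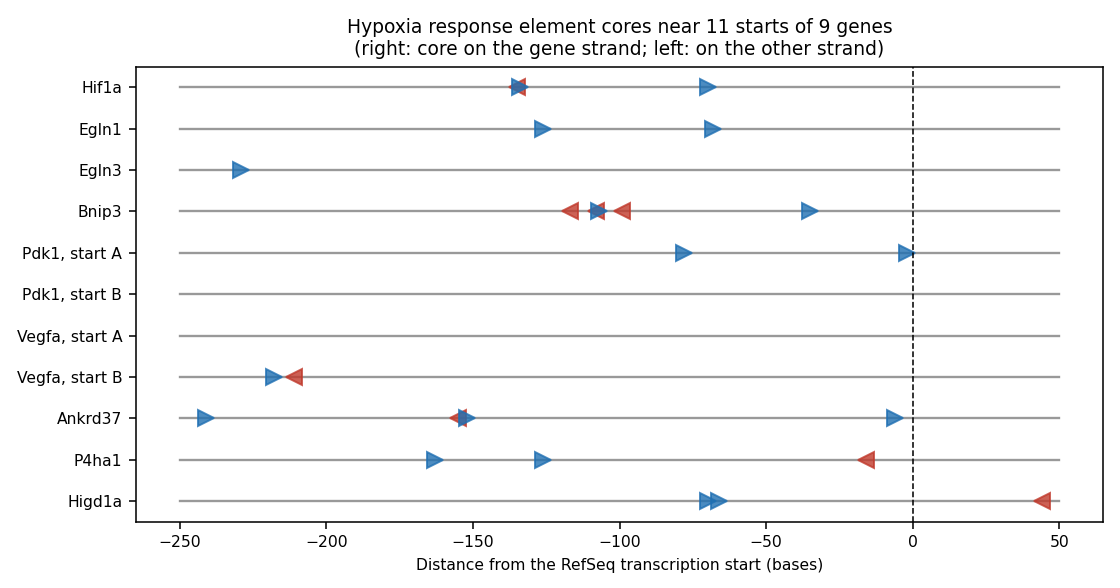
Positions of ACGTG and GCGTG cores in 11 RefSeq promoter windows of 9 genes, by distance in bases from the transcription start. Right-pointing symbols are cores on the gene's strand and left-pointing symbols on the other, and Bnip3 shows 5 cores while the outer Vegfa start (start A) and the inner Pdk1 start (start B) show none.

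Calls are genes with an adjusted p (Benjamini-Hochberg, over all genes tested) under 0.05 in edgeR's quasi-likelihood test. In RISP_KO against RISP_WT, 1 of the 10 rose (Vegfa) and 1 fell (Bnip3l), where 9.86% of all 13832 tested genes were called (4.78% higher and 5.08% lower). In RISP_Chimera_KO against RISP_Chimera_WT edgeR called 0 of 10, where the background was 0.708%. Hif1a was the 1 member at an unadjusted p under 0.05, as were 12.9% of all tested genes, and the 1 called (lower) by DESeq2, which called 3.21% of the genes it tested. In bulk libraries fewer cells of a type and less RNA per cell cannot be told apart. The median log2 fold change of the 10 was 0.10 in RISP_KO and -0.01 in the chimeras, beside 0.00 over all tested genes in both.

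In vitro, 9 of the 10 were tested, because Ankrd37 had only 2 to 12 counts per library. With piericidin 3 of the 9 rose (Bnip3, Pdk1 and Hif1a) and none fell, where 13.6% of 11689 genes were called (5.62% higher and 7.93% lower). With antimycin A 1 of 9 rose (Hif1a), where 15.0% were called (6.50% higher and 8.50% lower). With 3-NPA edgeR called 0 of 9, where 3.23% were called (1.35% higher and 1.87% lower). Pdk1 was the 1 member at an unadjusted p under 0.05 (16.4% of all genes) and the 1 called, as higher, by DESeq2 (6.78%). The 3 inhibitor comparisons share the untreated libraries. Over the 9 genes the median was 0.36 for piericidin, 0.23 for 3-NPA and 0.31 for antimycin A, beside 0.01, -0.01 and 0.02 over all tested genes.

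**Figure D2:**
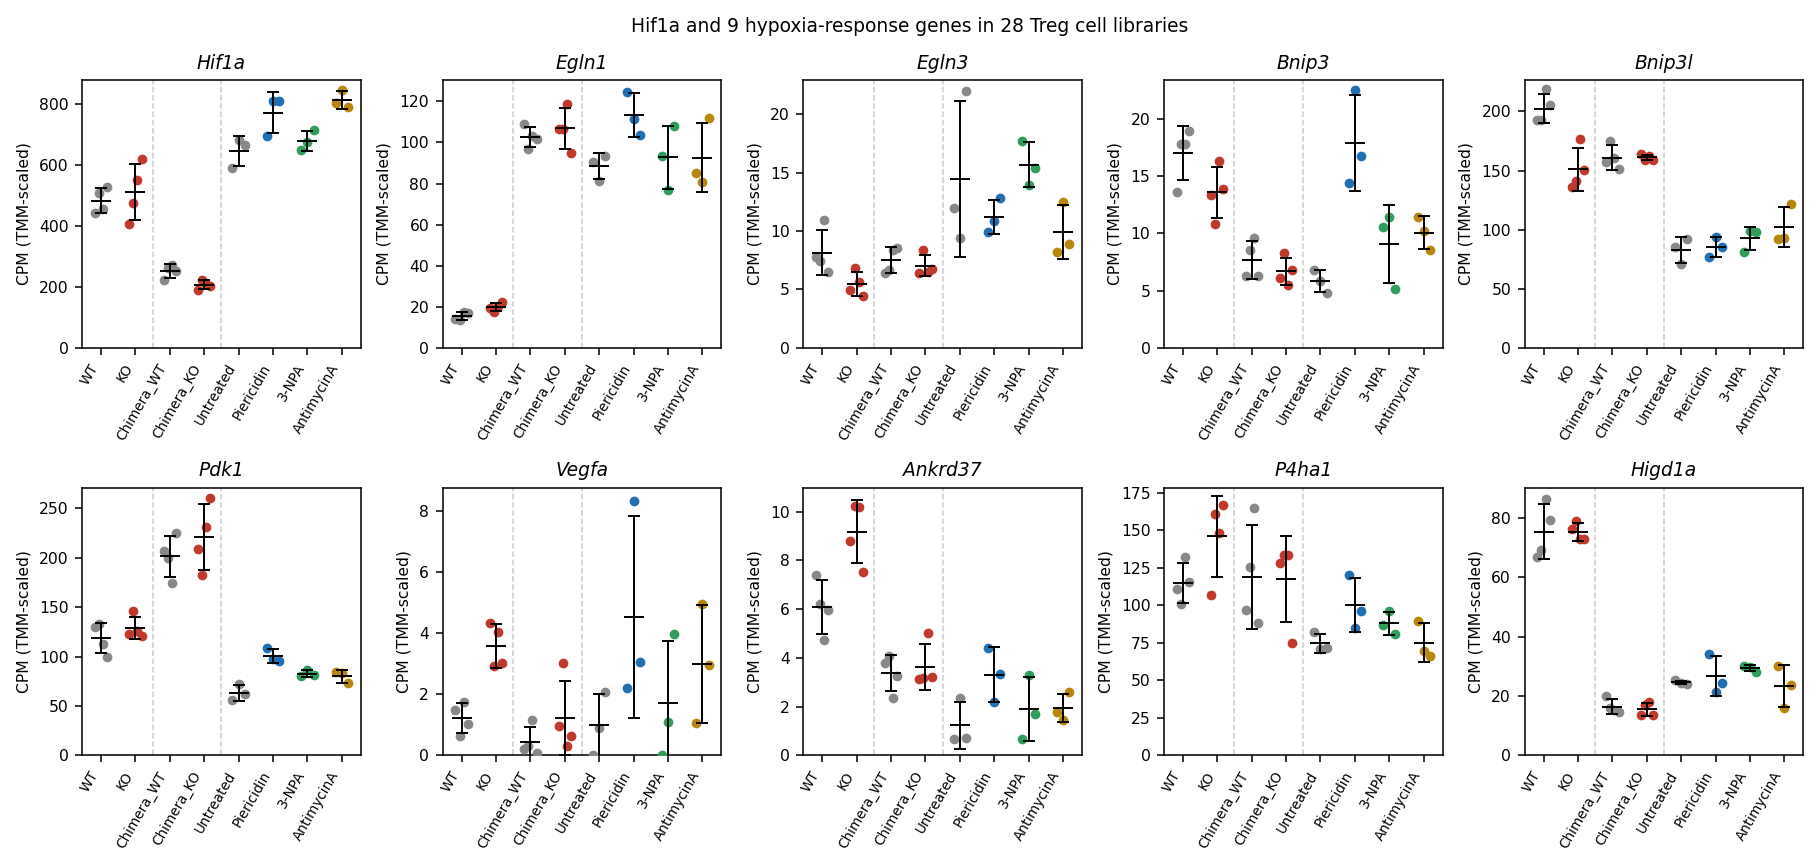
CPM of each of the 10 genes in all 28 libraries (points) with the mean and SD of each group, on axes that start at 0. Dashed lines part the 3 count tables, which were normalized separately. Bnip3 and Pdk1 stand above untreated in all 3 piericidin libraries, and Vegfa stands above RISP_WT in all 4 RISP_KO libraries.

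Hif1a (ENSMUSG00000021109, chr12:73901375-73947530 on mm10, plus strand) was the most abundant of the 10 per length in every in vitro group, at 53.7 to 67.5 CPM per kb of gene length as group means. It read 592, 682 and 666 CPM in untreated cells, 696, 811 and 812 under piericidin, 650, 676 and 716 under 3-NPA and 803, 847 and 790 under antimycin A. Every piericidin and antimycin A library stood above every untreated library, whereas the 3-NPA libraries overlapped them. Antimycin A gave a log2 fold change of 0.33 ± 0.08 (SE, adjusted p = 0.00325), piericidin gave 0.26 ± 0.08 (0.0278) and 3-NPA gave 0.07 ± 0.08 (0.714). The antimycin A call held without any 1 library (adjusted p up to 0.0407). The piericidin call was lost without piericidin replicate 2 (0.138) or 3 (0.125) or untreated replicate 1 (0.181) or 3 (0.0594).

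In the knockouts Hif1a did not pass the test. It read 407, 475, 553 and 620 CPM in RISP_KO and 443, 509, 455 and 527 in RISP_WT, with a log2 fold change of 0.09 ± 0.12 (adjusted p = 0.709). In the chimeras it read 191, 224, 211 and 204 CPM in the knockout and 222, 261, 274 and 253 in wild type, with a log2 fold change of -0.28 ± 0.08 (0.146). The chimera groups overlapped by a single pair of libraries, and DESeq2 called the difference (-0.28, adjusted p = 0.0422). The test of the difference between the knockout effects gave -0.39 ± 0.16 for Hif1a (adjusted p = 0.213). The exons of Hif1a share 330 bases with Gm15283 on the other strand, whose own counts were called in no comparison. In vitro Gm15283 changed by 0.24 ± 0.16 with piericidin (adjusted p = 0.369), -0.06 ± 0.16 with 3-NPA (0.891) and 0.25 ± 0.16 with antimycin A (0.329). The strand setting of the counting is not given in the sources used here, so reads of those 330 bases cannot be assigned. In GENCODE M21 the exons of Hif1a also share 148 bases with Gm49321 on the same strand, which is not among the gene IDs counted.

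Of the 4 other HIF subunit genes tested in RISP_KO, 2 rose (Epas1 and Hif3a), where 4.78% of all tested genes rose. Epas1 encodes HIF-2α, which shares the core motif and the partner of HIF-1α. It read 15.5, 5.17, 8.28 and 5.26 CPM in RISP_KO and 1.16, 1.37, 1.52 and 0.858 in RISP_WT, so that no libraries overlapped. Its log2 fold change of 2.81 ± 0.38 was called (adjusted p = 0.00129, at most 0.00678 over 13 alternatives). In the chimeras Epas1 read 1.99, 2.29, 3.40 and 1.61 CPM in the knockout and 3.22, 3.19, 2.80 and 3.19 in wild type (-0.41 ± 0.28, 0.591). Its knockout effect differed between the settings, by -3.24 ± 0.48 (chimera minus 3-week-old, adjusted p = 8.55e-04). That test compares settings that also differ in age, chimerism and library kit, and these cannot be told apart.

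Hif3a, an inhibitory or weak paralog depending on its isoform, read 3.83, 2.22, 1.88 and 1.85 CPM in RISP_KO and 0.919, 1.08, 0.827 and 0.292 in RISP_WT. Its rise of 1.66 ± 0.41 (adjusted p = 0.028) was lost without RISP_KO replicate 1 (0.0607), RISP_WT replicate 1 (0.0635) or RISP_WT replicate 3 (0.0757). It did not pass in the chimeras (0.22 ± 0.45, 0.881). Arnt, the shared partner, read 84.5, 93.4 and 89.1 CPM in untreated cells, 114, 118 and 114 with piericidin and 103, 122 and 128 with antimycin A. Both inhibitor groups stood wholly above untreated, with log2 fold changes of 0.37 ± 0.13 (0.0477) and 0.40 ± 0.13 (0.0292). Leaving out any 1 library of the piericidin comparison ended that call (0.0616 to 0.164). The antimycin A call ended without antimycin A replicate 2 (0.114) or 3 (0.152) or untreated replicate 1 (0.115) or 3 (0.0841). Arnt was not called with 3-NPA (0.12 ± 0.13, 0.699) or in RISP_KO (-0.16 ± 0.09, 0.3).

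**Figure D3:**
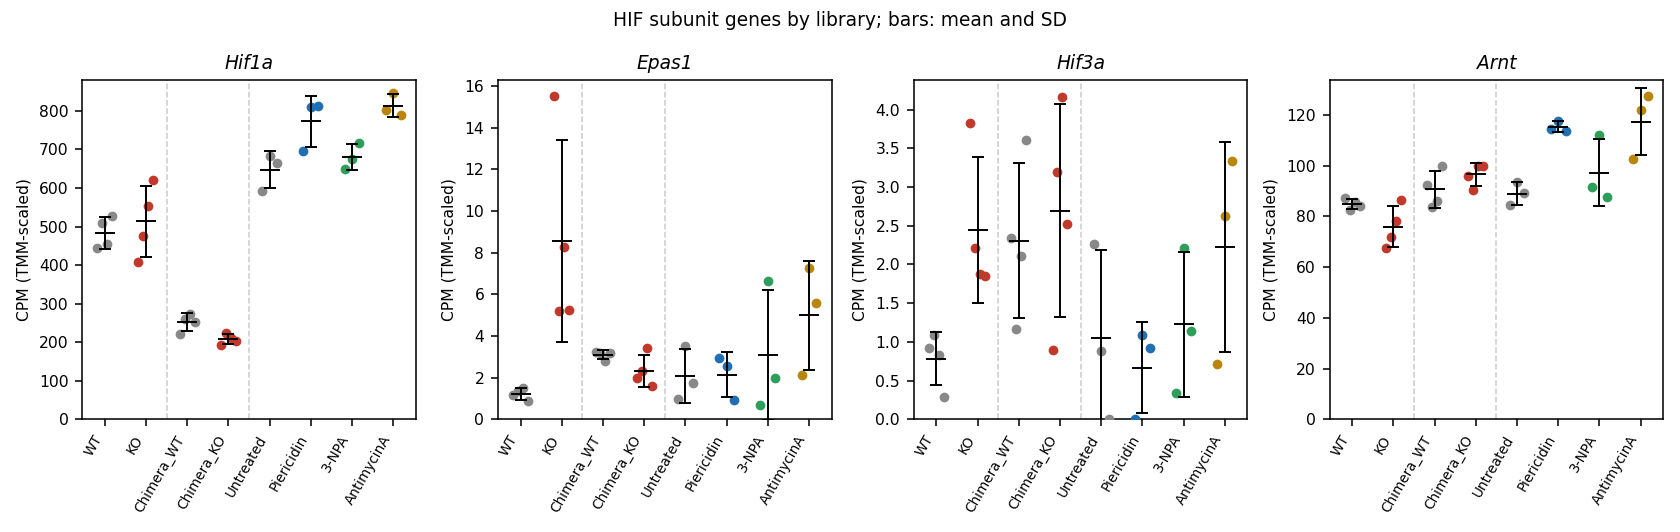
CPM of the HIF subunit genes Hif1a, Epas1, Hif3a and Arnt in all 28 libraries (points) with the mean and SD of each group. Epas1 reads 5.17 to 15.5 CPM in RISP_KO against 0.858 to 1.52 in RISP_WT, while Hif1a overlaps between those groups.

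Egln1 (ENSMUSG00000031987, chr8:124908596-124949254, minus strand) and Egln3 (ENSMUSG00000035105, chr12:54178981-54203860, minus strand) encode the oxygen sensors PHD2 and PHD3, and both are themselves HIF targets. Neither was called in any comparison. Egln1 read 125, 112 and 104 CPM with piericidin and 90.6, 81.4 and 93.6 in untreated cells, groups that did not overlap, with a log2 fold change of 0.36 ± 0.14 (adjusted p = 0.0949). In RISP_KO it read 19.2, 17.7, 20.3 and 22.2 CPM against 14.1, 13.4, 17.7 and 16.9 in RISP_WT (0.36 ± 0.14, 0.14). In the chimeras the difference was 0.06 ± 0.08 (0.813), and with 3-NPA and antimycin A it was 0.07 ± 0.14 (0.866) and 0.06 ± 0.14 (0.834).

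Egln3 was scarce, at 4.42 to 22.0 CPM over all libraries. It read 4.95, 6.86, 5.67 and 4.42 CPM in RISP_KO and 7.81, 7.41, 10.9 and 6.47 in RISP_WT, which touch at 1 pair of libraries, with a log2 fold change of -0.58 ± 0.21 (adjusted p = 0.118). The inhibitors gave -0.35 ± 0.36 (piericidin, 0.588), 0.13 ± 0.35 (3-NPA, 0.9) and -0.53 ± 0.36 (antimycin A, 0.363). Untreated replicate 3 alone read 22.0 CPM beside 12.0 and 9.37 in the others. The paralog Egln2 (PHD1) was not called either, with log2 fold changes of -0.19 ± 0.14 in RISP_KO, 0.07 ± 0.07 in the chimeras and -0.13 to 0.19 with the inhibitors. Of the 10 further genes of oxygen sensing and HIF degradation, all tested, 1 was called over the 5 comparisons. In these, 0.708% to 15.0% of all tested genes were called. The gene called was Ube2m, which acts in neddylation and fell with piericidin (-0.42 ± 0.14, adjusted p = 0.0364). That call ended without piericidin replicate 1 (0.145) or 2 (0.124) or untreated replicate 1 (0.159) or 3 (0.124).

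Bnip3 (ENSMUSG00000078566, chr7:138890836-138909519, minus strand) encodes a mitophagy receptor of the outer mitochondrial membrane and showed the largest called fold change of the 10 in vitro. It read 14.3, 22.5 and 16.8 CPM with piericidin and 6.80, 5.86 and 4.82 in untreated cells. All piericidin libraries stood well above all untreated ones. The log2 fold change was 1.61 ± 0.40, a 3.05-fold rise (adjusted p = 0.00427), and it was called without any 1 library (0.0044 to 0.0373). With antimycin A Bnip3 read 11.4, 10.2 and 8.53 CPM, again all above untreated, but the difference of 0.78 ± 0.41 did not pass (0.21). With 3-NPA it read 10.6, 11.4 and 5.12 CPM and overlapped untreated (0.61 ± 0.41, 0.488).

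In the knockouts Bnip3 did not pass the test. It read 13.3, 10.8, 16.3 and 13.9 CPM in RISP_KO and 13.6, 17.7, 17.8 and 18.9 in RISP_WT (-0.32 ± 0.16, adjusted p = 0.244), and the chimera difference was -0.20 ± 0.20 (0.727). Its counts are taken from a gene with an antisense neighbour in GENCODE M21 (Gm45507, 504 shared exon bases) whose counts are not analysed here.

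Bnip3l (ENSMUSG00000022051, chr14:66985239-67008877, minus strand) encodes NIX, the paralog that clears mitochondria from maturing red cells. It was the member that fell in RISP_KO, at 136, 141, 177 and 151 CPM against 192, 193, 219 and 205 in RISP_WT. Every knockout library stood below every wild-type library. The log2 fold change was -0.42 ± 0.09 (adjusted p = 0.0181), but the call ended without RISP_KO replicate 2 (0.0508) or RISP_WT replicate 3 (0.0624). Erythroid markers, 8 measured genes such as Hbb-bs, summed to 2.35 to 300.1 CPM in RISP_KO and 0.973 to 119 CPM in RISP_WT, and their part in this result was not tested. In the chimeras Bnip3l read 164, 159, 162 and 159 CPM in the knockout and 157, 175, 160 and 151 in wild type, a difference of 0.00 with a 95% interval from -0.14 to 0.14. The test of the difference between the knockout effects gave 0.41 ± 0.12 (adjusted p = 0.0849), and it passed with DESeq2 (0.032) and without RISP_KO replicate 3 (0.0274). With the inhibitors Bnip3l changed by 0.05 ± 0.15, 0.17 ± 0.14 and 0.31 ± 0.14 (piericidin, 3-NPA and antimycin A, adjusted p = 0.881, 0.621 and 0.163).

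Of 16 further mitophagy receptors and adaptors, Map1lc3b, which coats autophagosomes, fell in RISP_KO (-0.38 ± 0.08, adjusted p = 0.0147) and was the only one called of 14 tested there. Of all tested genes 9.86% were called in RISP_KO. The Map1lc3b call ended without RISP_WT replicate 1 (0.0549) or 3 (0.0508). In the chimeras edgeR and DESeq2 both called 0 of 15 tested, with 1 at an unadjusted p under 0.05. The shares of all genes tested were 0.708%, 3.21% and 12.9% in that order. Phb2, an inner-membrane mitophagy receptor, fell with all 3 inhibitors, piericidin giving -0.60 ± 0.10 (5.82e-05), 3-NPA -0.47 ± 0.10 (0.00488) and antimycin A -0.65 ± 0.10 (8.92e-06). The 3-NPA call ended without 3-NPA replicate 2 (0.0721) or untreated replicate 1 (0.0556). With antimycin A 2 of 13 tested rose, Gabarap (0.39 ± 0.11, 0.0132) and Pink1 (0.44 ± 0.14, 0.0285), beside 6.50% of all tested genes. Gabarap also rose with piericidin (0.33 ± 0.11, 0.0412), a call that ended without piericidin replicate 1 (0.171) or 3 (0.0971) and without any 1 untreated library (0.0623 to 0.127). With antimycin A, Gabarap lost its call without antimycin A replicate 3 (0.0649) or untreated replicate 2 (0.0571), and Pink1 without antimycin A replicate 1 (0.175) or 3 (0.0538) or untreated replicate 2 (0.119) or 3 (0.09).

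Pdk1 (ENSMUSG00000006494, chr2:71873224-71903858, plus strand) encodes a kinase that switches off pyruvate dehydrogenase and so keeps pyruvate out of the citric acid cycle. It read 108, 97.1 and 95.5 CPM under piericidin, 80.1, 86.8 and 81.3 under 3-NPA, 84.0, 83.5 and 72.7 under antimycin A and 55.7, 72.0 and 62.3 in untreated cells. Each inhibitor group stood wholly above untreated. The log2 fold change was 0.66 ± 0.14 with piericidin (adjusted p = 0.00103), called without any 1 library (0.001 to 0.0152). It was 0.38 ± 0.14 with 3-NPA (0.14) and 0.34 ± 0.14 with antimycin A (0.109), and DESeq2 called the 3-NPA difference (0.049). In the knockouts Pdk1 differed by 0.12 ± 0.11 (0.529) and 0.13 ± 0.11 (0.655), with 95% intervals from -0.12 to 0.36 and from -0.10 to 0.37.

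The paralogs Pdk2 and Pdk3 were called in none of these comparisons. Pdk2 gave -0.28 ± 0.14 in RISP_KO (adjusted p = 0.237) and 0.13 ± 0.44 with piericidin (0.898), and Pdk3 gave -0.04 ± 0.08 (0.813) and -0.09 ± 0.19 (0.837), while Pdk4 was too low to test. Of the 12 further genes of pyruvate dehydrogenase and its regulators 11 were tested in each comparison and 1 was called, Dld, a subunit shared by several dehydrogenases, which fell with antimycin A (-0.37 ± 0.13, 0.0438). That call ended without antimycin A replicate 2 (0.0526) or 3 (0.245) or untreated replicate 1 (0.205) or 3 (0.0684). Of all tested genes 0.708% (chimeras) to 15.0% (antimycin A) were called in these comparisons.

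Higd1a (ENSMUSG00000038412, chr9:121848560-121858000, minus strand) encodes a small inner-membrane protein that associates with respiratory complexes. It was called nowhere. In GENCODE M21 its exons share 683 bases with Gm47112 on the other strand, whose counts are not analysed here, so a part of its counts cannot be assigned either. It read 76.3, 79.1, 72.8 and 72.9 CPM in RISP_KO and 66.7, 69.1, 86.5 and 79.3 in RISP_WT, a log2 fold change of 0.00 with a 95% interval from -0.22 to 0.21. With 3-NPA the 3 libraries (30.0, 29.8 and 28.2 CPM) stood above untreated (25.2, 24.3 and 24.1), with a log2 fold change of 0.26 ± 0.24 (0.661). The other inhibitors gave 0.12 ± 0.25 (piericidin, 0.824) and -0.09 ± 0.25 (antimycin A, 0.873). Its relative Higd2a was not called, at -0.05 ± 0.11 in RISP_KO and -0.46 to 0.16 with the inhibitors.

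Vegfa (ENSMUSG00000023951, chr17:46016993-46032377, minus strand) encodes the main angiogenic growth factor and had the lowest level per length of the 10 in every group. It read 4.33, 2.92, 4.04 and 3.01 CPM in RISP_KO and 1.49, 0.646, 1.74 and 1.01 in RISP_WT. All knockout libraries stood above all wild-type ones. The log2 fold change was 1.55 ± 0.32, a 2.94-fold rise (adjusted p = 0.0114), and it was called without any 1 library (0.0155 to 0.0388). Macrophage markers, a list of 10 genes such as Csf1r, summed to 3.52 to 9.97 CPM in RISP_KO (Fcgr1 at 0) and 8.25 to 42.9 in RISP_WT. CD8 T and NK cell markers (7 genes, Ncr1 at 0 in RISP_KO) summed to 64.2 to 83.7 CPM in RISP_KO and 23.5 to 30.0 in RISP_WT. The sums of B cell markers (24.8 to 33.3 against 44.0 to 58.3 CPM) and of epithelial or pancreatic markers (21.1 to 33.2 against 41.7 to 52.8 CPM) went the other way, with all genes of both lists detected. By gene, DESeq2 called 2 CD8 T and NK cell markers higher and 0 lower, and 0 macrophage markers higher and 4 lower. It called 1 B cell marker higher and 3 lower, and 0 epithelial or pancreatic markers higher and 2 lower. Dendritic cell markers (7 genes) were also lower, at 3.10 to 5.84 CPM in RISP_KO (Clec9a and Cd209a at 0) against 6.02 to 7.19 in RISP_WT (Clec9a at 0). The part of these marker levels in the knockout results was not tested.

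In the chimeras Vegfa rested on few counts. The knockout libraries read 0.962, 3.01, 0.312 and 0.646 CPM (9 to 80 counts) and the wild-type ones 0.195, 0.319, 1.15 and 0.0686 (2 to 35 counts). The groups overlapped, with a log2 fold change of 1.47 ± 0.83 (adjusted p = 0.492). Macrophage markers summed to 27.5, 70.7, 27.9 and 86.1 CPM in the same knockout libraries and to 55.0, 22.2, 20.6 and 44.2 in the wild-type ones. The library with the most Vegfa (knockout replicate 2) was second in these markers, and the one with the second most Vegfa (wild-type replicate 3) had the fewest. Erythroid markers summed to 4.91, 31.0, 1.63 and 2.68 CPM in the knockout libraries and to 5.02, 4.96, 12.9 and 2.30 in the wild-type ones. Uqcrfs1 read 4.88, 11.3, 4.83 and 6.00 CPM in the knockout libraries. The part of the marker levels, or of cells that kept Uqcrfs1, in the Vegfa level was not tested. In vitro Vegfa read 0, 0.878 and 2.06 CPM in untreated cells (0, 3 and 6 counts), 2.21, 8.33 and 3.05 with piericidin (6, 23 and 10 counts), 0, 1.10 and 3.98 under 3-NPA and 1.07, 4.95 and 2.97 under antimycin A. All piericidin libraries stood above untreated, but the difference of 2.18 ± 0.98 did not pass (0.139), and its 95% interval ran from 0.24 to 4.21. In all 4 in vitro groups 7 or 8 of the 10 macrophage markers were at 0, among them C1qc, Fcgr1 and Marco.

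The paralog Vegfb was not called (0.49 ± 0.21 in RISP_KO, adjusted p = 0.18, and 0.05 ± 0.23 in the chimeras, 0.963). Of 9 further VEGF ligands and receptors 4 were tested in each knockout. Nrp1, a VEGF co-receptor that also marks thymus-derived Treg cells, fell in both, by -1.88 ± 0.09 in RISP_KO (2.67e-06) and -0.92 ± 0.12 in the chimeras (0.00512). Its fall was smaller in the chimeras, by 0.95 ± 0.16 (0.00319), where age, chimerism and library kit also differ and cannot be told apart. It also fell with piericidin (-0.33 ± 0.11, 0.0307), a call that ended without piericidin replicate 1 (0.0701) or 2 (0.149) or any 1 untreated library (0.0505 to 0.0933).

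P4ha1 (ENSMUSG00000019916, chr10:59323296-59373304, plus strand) encodes a collagen prolyl 4-hydroxylase subunit. It read 120, 84.8 and 95.8 CPM with piericidin and 81.9, 70.6 and 71.6 in untreated cells. These groups did not overlap, yet the log2 fold change of 0.42 ± 0.15 lay just past the threshold (adjusted p = 0.0523). It was called with DESeq2 (0.026), with a term for replicate number in the fit, and without piericidin replicate 2 (0.0334). In RISP_KO P4ha1 read 107, 161, 148 and 167 CPM against 110, 101, 132 and 116 in RISP_WT (0.35 ± 0.14, 0.146), and it was called without RISP_KO replicate 1 (0.0167), the library that read lowest. The chimera difference was -0.02 ± 0.20 (0.985), and 3-NPA and antimycin A gave 0.23 ± 0.15 (0.467) and 0.01 ± 0.15 (0.984).

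The paralog P4ha2 reached the test only in RISP_KO, without a call (0.59 ± 0.68, adjusted p = 0.636). Of 10 further prolyl 4-hydroxylase genes and partners, P4hb, the disulfide isomerase that forms the other subunit, fell with 3-NPA (-0.35 ± 0.09, 0.027) and with antimycin A (-0.45 ± 0.09, 5.44e-04), 1 of 6 tested in each. Over all tested genes 1.87% fell with 3-NPA and 8.50% with antimycin A. The 3-NPA call of P4hb ended without any 1 3-NPA library (0.0585 to 0.161) and without untreated replicate 1 (0.103) or 3 (0.154).

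Ankrd37 (ENSMUSG00000050914, chr8:45996902-45999867, minus strand) encodes an ankyrin-repeat protein and is a well-known HIF-1 target. It read 8.78, 10.2, 10.2 and 7.52 CPM in RISP_KO and 7.41, 6.22, 4.74 and 5.96 in RISP_WT. The groups did not overlap, though the nearest libraries were 7.52 and 7.41 CPM. A log2 fold change of 0.59 ± 0.18 did not pass (adjusted p = 0.0691), though it was called with DESeq2 (0.0132) and without RISP_KO replicate 4 (0.0485). In the chimeras the difference was 0.11 ± 0.26 (0.909). In vitro Ankrd37 read 0.647 to 2.34 CPM in untreated cells, 2.17 to 4.41 with piericidin, 0.682 to 3.31 with 3-NPA and 1.46 to 2.60 with antimycin A, with no test. Its exons share 349 bases with Lrp2bp and 57 bases with Ufsp2 on the other strand, so a part of its counts cannot be assigned without the strand setting.

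**Figure D4:**
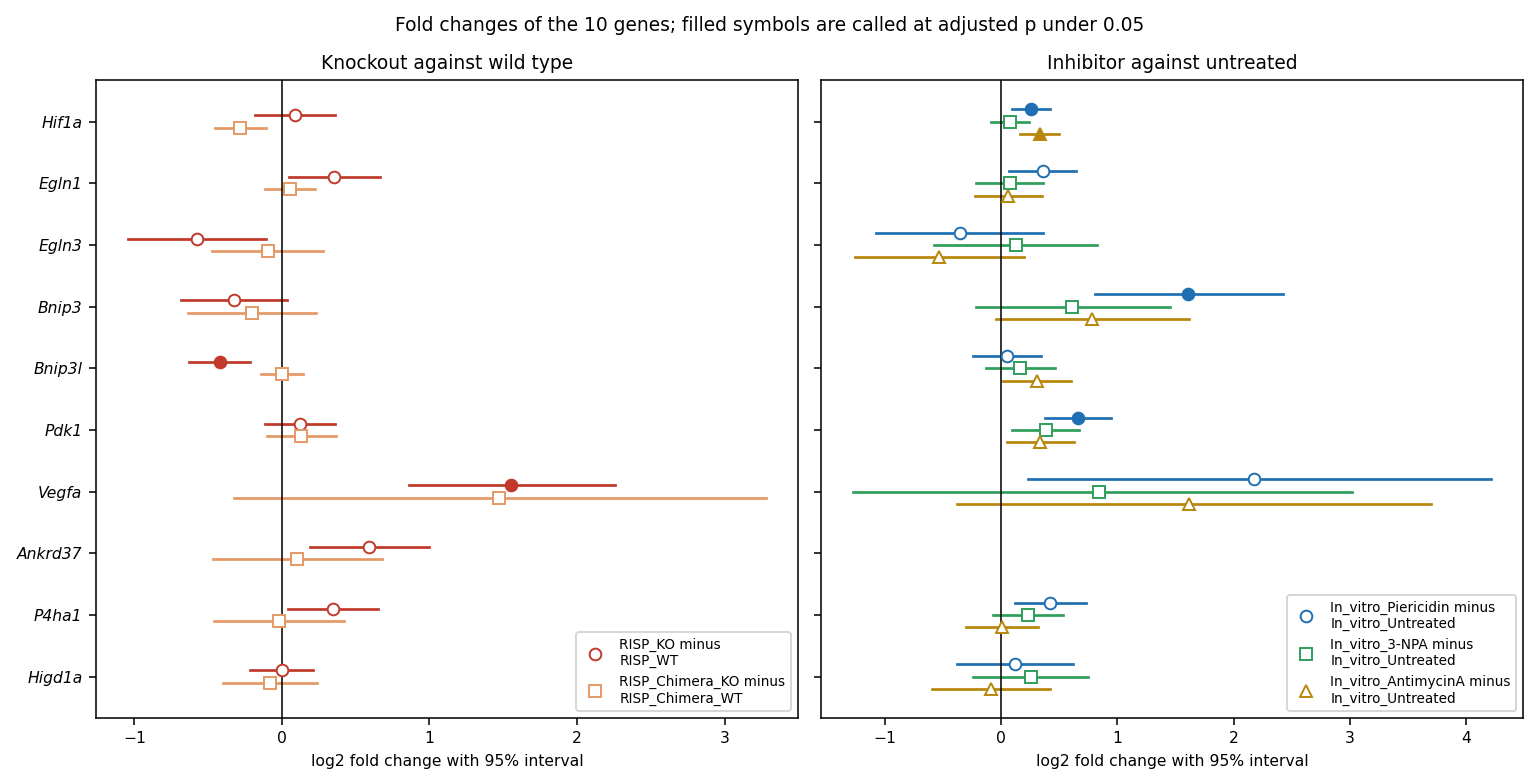
Log2 fold changes (symbols) with 95% intervals (lines) of the 10 genes in the knockouts (left) and with the inhibitors (right), and filled symbols for genes called at an adjusted p under 0.05. Ankrd37 was not tested in vitro. The filled symbols are Vegfa and Bnip3l in RISP_KO, Hif1a, Bnip3 and Pdk1 with piericidin and Hif1a with antimycin A.

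By non-overlap of the libraries, 2 of the 10 genes were wholly higher in RISP_KO (Vegfa and Ankrd37) and 1 wholly lower (Bnip3l), where 7.89% and 9.49% of all tested genes were. With piericidin 6 of the 10 were wholly higher (Hif1a, Egln1, Bnip3, Pdk1, Vegfa and P4ha1), where 13.7% were. With antimycin A 3 were (Hif1a, Bnip3 and Pdk1; background 15.0%) and with 3-NPA 2 were (Pdk1 and Higd1a; 9.43%). In the chimeras none of the 10 was wholly higher or wholly lower, where 3.39% and 4.11% were.

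The inhibitors were also compared with each other, over 3 pairs and 9 genes. The doses were equal only for piericidin and antimycin A, and the labels give no times. No gene was called by edgeR's main fit in any pair. With a term for replicate number in the fit, edgeR called Hif1a between antimycin A and 3-NPA. Between antimycin A and piericidin, 4 of 9 had an unadjusted p under 0.05 (Egln1, Bnip3, Pdk1 and P4ha1, all with negative differences), as had 10.5% of all genes. DESeq2 called 0 of 9 and 1.81% of its genes, and edgeR called 0.736% of all genes. Bnip3 differed by -0.83 ± 0.38 (adjusted p = 0.427, 95% interval from -1.60 to -0.06) and Pdk1 by -0.32 ± 0.14 (0.393, from -0.60 to -0.04). For both, the antimycin A libraries stood wholly below the piericidin ones, as did 7.52% of all genes.

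Against 500 µM 3-NPA the values stand side by side at unlike doses. Bnip3 differed by 0.99 ± 0.38 between piericidin and 3-NPA (adjusted p = 0.141, 95% interval from 0.22 to 1.77), where 4.29% of genes were called. In that pair 2 of 9 had an unadjusted p under 0.05 (Hif1a and Bnip3), as had 17.7% of all genes, and DESeq2 called 0 of 9 and 7.60% of its genes. Hif1a differed by 0.26 ± 0.08 between antimycin A and 3-NPA (0.0646), where 3.98% were called. DESeq2 called this 1 difference (0.0212) and 7.62% of its genes. Hif1a was also the 1 member with an unadjusted p under 0.05, beside 16.7% of all genes. The test of the difference between the 2 knockout effects called 0 of the 10 genes in edgeR, where 3.27% of 15580 genes were called. DESeq2 called 1 (Bnip3l) and 6.06% of its genes, and 3 of 10 were at an unadjusted p under 0.05, beside 16.7% of all genes.

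Glycolytic targets of HIF form a separate list of 22 genes without the 10. In RISP_KO, where 4.78% of all tested genes were called higher and 5.08% lower, 10 of 22 rose and 0 fell. The median log2 fold change of the 22 was 0.28. The examples with the smallest p were Aldoa, Pfkp and Tpi1, enzymes of the upper and middle pathway, at 0.59 ± 0.07 (adjusted p = 4.57e-04), 0.61 ± 0.07 (4.94e-04) and 0.71 ± 0.09 (7.77e-04). The count was 7 to 11 over the alternatives, and the part in it of the marker levels given above was not tested. In the chimeras 0 of 22 were called by edgeR and by DESeq2, 0 had an unadjusted p under 0.05, and the median was 0.02. There edgeR called only 0.708% of all tested genes, DESeq2 called 3.21% of its genes, and 12.9% had an unadjusted p under 0.05. Epithelial or pancreatic markers summed to 2.49 to 5.46 CPM in RISP_Chimera_KO and 7.80 to 11.3 in RISP_Chimera_WT, and their part in the chimera results was not tested. For the difference between the knockout effects 3.27% of all tested genes were called. The knockout effect was smaller in the chimeras for 7 of 22 genes, among them Pfkp (-0.61 ± 0.10, 0.0017), Tpi1 (-0.66 ± 0.12, 0.00483) and Gapdh (-0.60 ± 0.11, 0.0053). That count was 3 without RISP_WT replicate 3 and 4 without any 1 of RISP_WT replicates 1, 2 and 4, RISP_Chimera_KO replicate 4 and RISP_Chimera_WT replicates 2 and 3. Age, chimerism and library kit also differ between these settings and cannot be told apart.

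With antimycin A, where 6.50% of all tested genes were called higher and 8.50% lower, 8 of the 22 fell and 0 rose (median -0.10). The falls were led by Ldha, lactate dehydrogenase (-0.84 ± 0.09, adjusted p = 2.35e-09), Gapdh (-0.77 ± 0.09, 2.33e-08) and Tpi1 (-0.85 ± 0.12, 2.44e-06). With piericidin 5.62% of all tested genes were called higher and 7.93% lower. Of the 22, piericidin gave 3 higher and 4 lower (median 0.17), among them Slc16a3, the lactate exporter (0.84 ± 0.19, 0.0018), Aldoa (0.35 ± 0.08, 0.00158) and Ldha (-0.42 ± 0.09, 6.12e-04). The piericidin split was 5 higher and 1 lower without piericidin replicate 3, 3 and 1 without replicate 2, 4 and 2 without untreated replicate 1, 2 and 2 without replicate 2 and 2 and 1 without replicate 3. Between antimycin A and piericidin 0.736% of all tested genes were called. These 2 inhibitors differed in 8 of the 22, all lower with antimycin A, such as Tpi1 (-1.10 ± 0.12, 5.45e-08), Gapdh (-0.51 ± 0.09, 4.18e-04) and Aldoa (-0.40 ± 0.08, 0.00327). That count was 4 without antimycin A replicate 3 and 3 without piericidin replicate 1. With 3-NPA, where 1.35% of all tested genes were called higher and 1.87% lower, 3 fell (Ldha, Gapdh and Pgk1) and 0 rose. None of these 3 was called without 3-NPA replicate 3, untreated replicate 1 or untreated replicate 3, the number was 1 without 3-NPA replicate 2, and it was 2 without 3-NPA replicate 1 or untreated replicate 2.

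**Figure D5:**
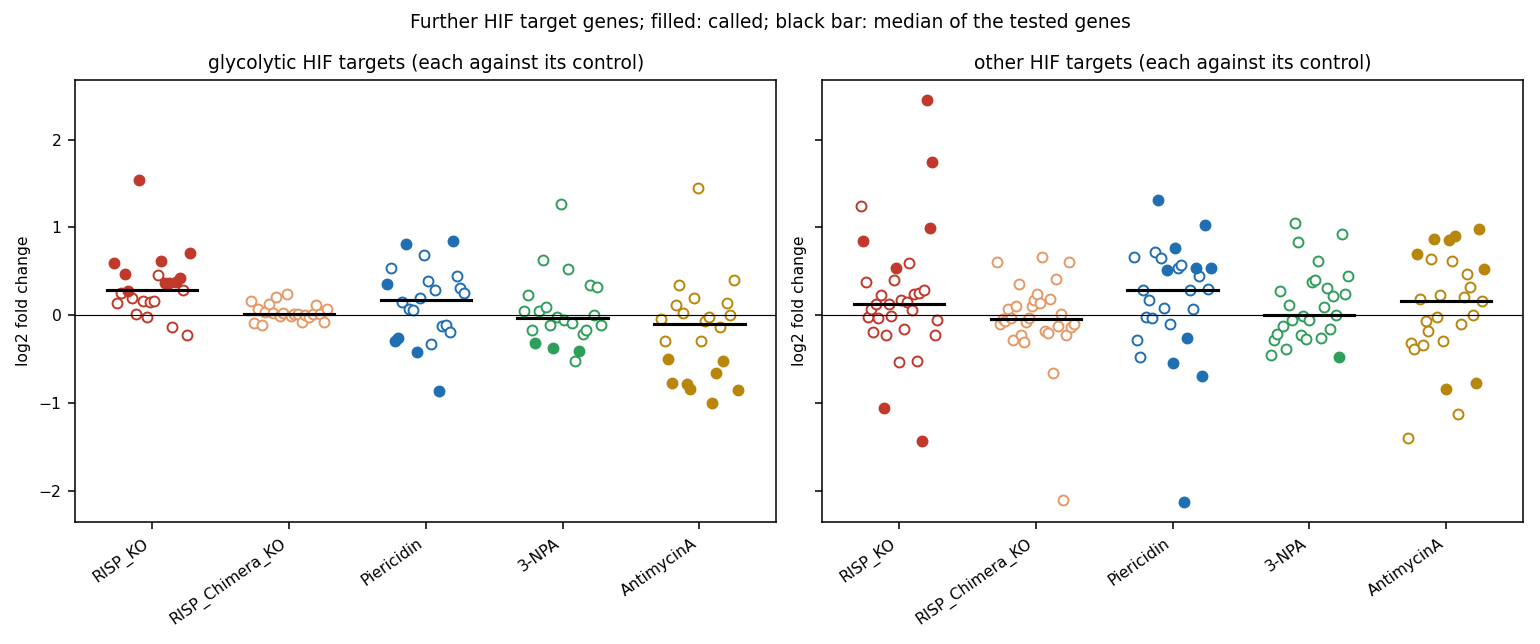
Log2 fold changes of 22 glycolytic HIF targets (left) and of the tested genes among 38 other HIF targets (right) in each comparison with its control, 1 symbol per gene. Filled symbols are called genes and black bars are medians, and the RISP_KO glycolytic median is 0.28 against 0.02 in the chimeras and -0.10 with antimycin A.

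Of 38 other HIF targets 31 were tested in RISP_KO, where 5 rose and 2 fell, beside 4.78% and 5.08% of all tested genes. Stc2, a secreted glycoprotein, rose by 2.45 ± 0.33 (adjusted p = 0.00136), Trib3, a stress-induced pseudokinase, rose by 1.74 ± 0.22 (7.73e-04) and Rora, a nuclear receptor, fell by -1.44 ± 0.16 (4.57e-04). These 3 were called under every alternative. The number of falls was 1 without any 1 of 6 libraries (RISP_KO replicates 1, 3 and 4, RISP_WT replicates 2, 3 and 4), and the number of rises was 3 without RISP_WT replicate 1. In the chimeras edgeR called 0 of 30 (0.708% of all genes), with 5 at an unadjusted p under 0.05 (12.9% of all genes). DESeq2 called 1 higher and 1 lower (3.21% of its genes in either direction). Without RISP_Chimera_KO replicate 2 edgeR called 1 higher.

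In vitro 27 of these were tested. Piericidin gave 6 higher and 4 lower, beside 5.62% and 7.93% of all tested genes. With 3-NPA 0 were higher and 1 lower, beside 1.35% and 1.87%. Antimycin A gave 6 higher and 2 lower, beside 6.50% and 8.50%. Tfrc, the transferrin receptor and a HIF target, fell with all 3, by -0.70 ± 0.09 (adjusted p = 1.07e-06), -0.48 ± 0.09 (0.0016) and -0.77 ± 0.09 (5.49e-08), while it rose in RISP_KO (1.00 ± 0.20, 0.0109). Ddit4, an inhibitor of mTORC1, rose with antimycin A (0.70 ± 0.14, 3.42e-04) and Mif, a cytokine, fell (-0.85 ± 0.14, 1.92e-05). Rora rose with piericidin (0.54 ± 0.13, 0.00363). With piericidin the number higher was 3 without piericidin replicate 3, and the number lower was 2 without piericidin replicate 1 or 3 or untreated replicate 3. With antimycin A the number higher was 3 without its replicate 2 or untreated replicate 3. With 3-NPA 1 rose without untreated replicate 1. Plasma cell markers (5 genes, Jchain at 0 in untreated and piericidin) summed to 669 to 735 CPM in untreated cells and 447 to 628 with the inhibitors. By gene, DESeq2 called 0 of them higher and 1 lower with piericidin and with 3-NPA, and 1 higher and 1 lower with antimycin A. Epithelial or pancreatic markers were at 10.1 to 12.7 CPM with piericidin (Krt18, Cpa1 and Try4 of 7 at 0) and 13.5 to 16.5 in untreated cells. The part of these markers in the inhibitor results was not tested.

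Compared per length, the order of the 10 genes differed between the tables, which were normalized separately and not tested against each other. Hif1a and Higd1a led in RISP_WT, at 40.1 ± 3.38 and 40.3 ± 4.92 CPM per kb (SD, n = 4), and did not differ beyond their spread. Egln1 led in RISP_Chimera_WT at 29.2 ± 1.44 CPM per kb (SD, n = 4), where Hif1a and Bnip3l followed at 21.0 ± 1.84 and 17.7 ± 1.14 and overlapped. In RISP_WT Egln1 stood seventh at 4.41 ± 0.60 CPM per kb and overlapped Bnip3 above it and Egln3 below it. Vegfa was last everywhere, at 0.0270 ± 0.0305 CPM per kb in RISP_Chimera_WT. The kit, the age and the setting differ between these tables and cannot be told apart.

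Over the 28 libraries, with log2 CPM centred in each table on the mean of its group means, the non-members most like Hif1a among 8755 genes were Il7r (r = 0.76), Vps54 (0.76) and Dnaja4 (0.75). Those most like Bnip3 were Zmym5 (0.77), Agtrap (0.77) and Stxbp3 (0.75). Among 9 of the members, without Ankrd37, which was not tested in vitro, the highest r was 0.44 (Hif1a and Bnip3). Libraries of a group share their treatment, table and depth, and these values are a description without a test.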

How the data were processed

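The deposited files are tables of read counts per gene, which the authors made with TopHat and HTSeq on mm10 after bcl2fastq, with edgeR also named, per the submitters' processing notes. Versions and the strand setting are not given in the sources used here. Per the labels' protocols the 3-week-old libraries were made with a Takara kit and the chimera and in vitro libraries with an NEB kit. Another 11 columns of per-sample values match no sample and were not used. Each table was analysed alone, except for the test of the difference between the knockout effects (16 libraries). Low genes were removed with filterByExpr, libraries were scaled by TMM, and groups were compared with edgeR 4.0.16 (quasi-likelihood test, R 4.3.3, limma 3.58.1) with Benjamini-Hochberg adjustment over all genes tested. Fold changes used a prior count of 0.125. The SE of a fold change is its size divided by the square root of its F, and intervals are 95%. The labels do not say whether replicate numbers pair the libraries, and the main fits held no term for them. In vitro 10 of 12 libraries correlated best with a library of their own number, so a part shared by number is possible there. No library was a copy of another. Alternatives were DESeq2 1.42.0, RLE size factors, no filter on low counts, a filter of 1 CPM, only the groups compared (in vitro), a replicate block, and leaving out each library. The 10 genes and all lists were chosen with earlier results of these data known. Besides the 10 genes, the text names up to 3 called genes with the smallest p per list and comparison, the direct paralogs, Uqcrfs1, and the 3 genes most like Hif1a and Bnip3 by Pearson r.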

Additional observations from a re-analysis of the deposited data

Results flagged for a closer look

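Each of the 10 genes was checked in each group of 4 libraries, which made 40 sets of values. In 3 of the 40 sets, 1 library stood apart from the other 3 by more than Dixon's 95% limit. By chance about 1 in 20 sets is flagged. All 3 are RISP_Chimera_KO libraries. Egln3 read 8.35 CPM in replicate 2, against 6.44 to 6.75 in the others. Ankrd37 read 5.03 CPM in replicate 3, against 3.12 to 3.20. P4ha1 read 74.7 CPM in replicate 4, against 127.9 to 133.2.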

How the results depend on the processing

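Of 1131 alternative values for single members, 1113 stayed on their side of the threshold, 6 lost a call, 12 gained one and 0 reversed a call. The 1113 include 61 uncalled values whose sign changed, spread over 26 of the 78 uncalled estimates. The number of members called in RISP_KO ranged from 1 to 3 when single libraries were left out, and was 1 without RISP_KO replicate 2 or RISP_WT replicate 3. DESeq2 called 1 member instead of 0 in the chimeras, with 3-NPA, between antimycin A and 3-NPA and for the difference between the knockout effects, where leaving out single libraries gave 0 to 1. The replicate block gave 1 instead of 0 between antimycin A and 3-NPA (Hif1a, 0.26, adjusted p = 0.0325) and called P4ha1 with piericidin (0.42, 0.034). Same-numbered libraries correlated by 0.00 to 0.09 in vitro, -0.04 to 0.03 at 3 weeks and -0.10 to 0.13 in the chimeras. Libraries of unlike number correlated by -0.08 to 0.03, -0.10 to 0.07 and -0.12 to 0.17 in the same order. In vitro 10 of 12 libraries correlated best with their own number (0 of 8 at 3 weeks, 2 of 8 in the chimeras). A part shared by number is thus possible in vitro, and the main fit does not model it. With the replicate block the calls over all genes were 1733 with piericidin, 481 with 3-NPA and 1900 with antimycin A. Over all genes RISP_KO gave 1364 calls, 2148 with DESeq2, 895 with the replicate block and 787 to 1486 without single libraries. The chimeras gave 102, 436 with DESeq2 (42.4% higher against 23.5%), 208 with no filter on low counts, 247 without RISP_Chimera_KO replicates 2 and 4, and 33 to 177 without single libraries. Single libraries left out gave 1009 to 1421 of 1584 calls with piericidin, 130 to 295 of 377 with 3-NPA (672 with DESeq2) and 1261 to 1613 of 1754 with antimycin A. For the inhibitor pairs they gave 43 to 75 of 86 (antimycin A and piericidin, 203 with DESeq2), 188 to 454 of 465 (antimycin A and 3-NPA, 788) and 230 to 409 of 502 (piericidin and 3-NPA, 820). The difference between the knockout effects gave 509, 908 with DESeq2, 324 with the replicate block, 319 without RISP_Chimera_KO replicates 2 and 4, and 323 to 627 without single libraries. In vitro depth limits Vegfa and Ankrd37, which rested on at most 23 counts per library.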

Other observations

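Of 12 HIF coactivators and modifiers, members aside, 1 rose in RISP_KO: Pkm, the muscle and proliferative pyruvate kinase, by 0.37 ± 0.07 (edgeR, adjusted p = 0.00821). There edgeR called 4.78% of all tested genes higher and 5.08% lower. In that comparison 3 of the 12 had an unadjusted p under 0.05, and DESeq2 called 1 higher and 2 lower. In the chimeras edgeR and DESeq2 called 0 and 0 had an unadjusted p under 0.05, beside 0.708%, 3.21% and 12.9% of all genes tested. In vitro 11 were tested. With piericidin edgeR called 2 higher and 2 lower (DESeq2 4 and 3), beside 5.62% and 7.93% of all tested genes in edgeR. With 3-NPA edgeR and DESeq2 both called 0 and 2, beside 1.35% and 1.87% in edgeR. With antimycin A both called 2 and 3, beside 6.50% and 8.50% in edgeR. Over all genes DESeq2 called 2025 with piericidin, 672 with 3-NPA and 2184 with antimycin A (edgeR 1584, 377 and 1754). The chaperone Hsp90ab1, whose protein binds HIF-1α, fell with piericidin (-0.30 ± 0.07, 0.00195), 3-NPA (-0.46 ± 0.07, 5.21e-05) and antimycin A (-0.62 ± 0.07, 1.49e-08). Its paralog Hsp90aa1 fell as well (-0.77 ± 0.09, -0.38 ± 0.09 and -0.81 ± 0.10). The 3-NPA call of Hsp90aa1 ended without 3-NPA replicate 2 (0.0798) or 3 (0.0615) or untreated replicate 1 (0.0871) or 3 (0.089). Ep300, the acetyltransferase that HIF recruits, rose with piericidin (0.41 ± 0.10, 0.00359), and Pkm fell with antimycin A (-0.52 ± 0.08, 3.48e-06).

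Gm15283, antisense to Hif1a, read 0.923 to 1.68 CPM in the 3-week-old libraries, 1.00 to 3.42 in the chimeras and 53.7 to 99.8 in vitro. Egln1 read 13.4 to 22.2 CPM at 3 weeks, 94.9 to 119 in the chimeras and 76.9 to 125 in vitro. These tables were normalized separately and were not tested against each other.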
